A study of Mus musculus with 9 samples.

Results

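The genes described here are 10 genes of betaine and choline transport and metabolism, chosen by name from the 54532 genes listed in RNA sequencing tables of the mouse hippocampus. They cover 3 transporters (Slc6a12, Slc6a20a and Slc44a1), the pair of enzymes that make betaine from choline (Chdh and Aldh7a1), the enzymes that break betaine down to glycine or methylate glycine (Dmgdh, Sardh and Gnmt), and 2 enzymes of phosphatidylcholine synthesis (Chka and Pemt). All 10 were present in each of 2 deposited tables, and all were annotated as protein coding.

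The labels describe male C57BL/6 mice bought at 6 to 8 weeks of age and held as a pair per cage. The 3 Con mice were kept on standard chow. The 3 HMD mice were fed high methionine over 8 weeks. The 3 Bet+HMD mice had the same 8 weeks of feeding, after which their drinking water contained 2.5% (w/v) betaine for 2 weeks. The genotype label is wild type for Con and names only the diet for HMD. The strain label of the Bet+HMD samples counts upward from C57BL/6 with the replicate number. Whether the methionine diet went on during the betaine weeks is not stated, so the groups may also differ in age at collection. The earlier table holds Con and HMD, and the later table holds these libraries again together with Bet+HMD. The diet comparison, HMD against Con, was made in the earlier table, and both comparisons of Bet+HMD were made in the later one. The Bet+HMD libraries came in the later table alone, so betaine and the batch of these libraries cannot be told apart in any value below.

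Betaine, or trimethylglycine, is a cell osmolyte and a methyl donor. It is taken up from the diet or made in mitochondria by oxidation of choline, and betaine-homocysteine methyltransferase (Bhmt) uses it, mainly in liver and kidney, to turn homocysteine back into methionine. The dimethylglycine that is left loses its methyl groups in turn and ends as glycine. Choline also enters phosphatidylcholine, the main membrane phospholipid, through phosphorylation by choline kinase, and phosphatidylcholine can be made by methylation of phosphatidylethanolamine with S-adenosylmethionine, the product of methionine.

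Promoter windows are shown for 4 genes. Chka and Slc44a1 were taken because they passed the test between Bet+HMD and HMD. Slc6a12 and Dmgdh are genes of low expression whose Bet+HMD libraries lay above those of HMD without overlap. Pemt, also of low expression, separated downward in the same comparison and its window is not shown. Each window runs from 250 bases before to 50 bases after the start of a RefSeq transcript on GRCm38.p6 and is written 5′ to 3′ on the gene's strand. Of the 10 genes, 9 had a window and Aldh7a1 had none. Capitals mark any of 5 motifs found on either strand: the tonicity element core TGGAAA, the GC box GGGCGG, the CCAAT box CCAAT, the TATA box TATAAA and the E box CACGTG. The Chka window lies at chr19:3851523-3851822 (+ strand), Slc44a1 at chr4:53440163-53440462 (+ strand), Slc6a12 at chr6:121342826-121343125 (+ strand) and Dmgdh at chr13:93674186-93674485 (+ strand).
Chka: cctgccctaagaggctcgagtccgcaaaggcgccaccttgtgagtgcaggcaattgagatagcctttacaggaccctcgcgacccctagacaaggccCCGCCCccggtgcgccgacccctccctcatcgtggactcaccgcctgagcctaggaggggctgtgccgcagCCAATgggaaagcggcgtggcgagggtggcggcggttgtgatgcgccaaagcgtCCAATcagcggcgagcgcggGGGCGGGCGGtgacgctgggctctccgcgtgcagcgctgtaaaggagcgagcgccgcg
Slc44a1: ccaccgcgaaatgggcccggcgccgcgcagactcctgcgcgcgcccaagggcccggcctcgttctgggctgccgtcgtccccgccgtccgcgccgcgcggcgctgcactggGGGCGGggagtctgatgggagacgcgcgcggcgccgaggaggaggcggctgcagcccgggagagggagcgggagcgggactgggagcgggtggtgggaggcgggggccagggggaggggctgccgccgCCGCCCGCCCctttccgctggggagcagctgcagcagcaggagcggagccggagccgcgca
Slc6a12: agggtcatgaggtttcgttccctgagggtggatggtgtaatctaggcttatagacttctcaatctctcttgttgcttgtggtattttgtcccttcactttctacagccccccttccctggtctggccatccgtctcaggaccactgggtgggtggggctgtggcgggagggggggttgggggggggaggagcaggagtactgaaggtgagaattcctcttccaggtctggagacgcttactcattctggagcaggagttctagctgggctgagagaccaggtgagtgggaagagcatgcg
Dmgdh: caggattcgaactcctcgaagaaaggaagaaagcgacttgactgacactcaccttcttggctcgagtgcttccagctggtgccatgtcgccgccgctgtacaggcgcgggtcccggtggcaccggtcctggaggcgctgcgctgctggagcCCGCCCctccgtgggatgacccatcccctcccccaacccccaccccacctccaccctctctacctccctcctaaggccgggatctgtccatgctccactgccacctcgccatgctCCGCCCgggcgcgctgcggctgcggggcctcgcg
The Chka window holds GC boxes that start at positions -153, -8 and -4 relative to the transcript start, of which the last pair overlap, and CCAAT boxes at -82 and -28. The Slc44a1 window holds GC boxes at -139, -11 and -7, with the last pair again overlapping, and the Dmgdh window holds them at -99 and 17. The Slc6a12 window holds none of the 5 motifs. GC boxes were present in 35.7% of all 32851 windows and CCAAT boxes in 37.4%. The tonicity element core was present in 21.4% of all windows and in 0 of the 9 windows searched. The window searched for each gene was the one nearest its listed start. Slc6a12 has 5 windows, Chdh 3, and Slc44a1 and Pemt 2 each, and the others of these genes were not searched. The transcript starts used for Pemt and Sardh lie 6301 and 1034 bases from the listed gene starts. The Chka window has 33 CpG dinucleotides, the Slc44a1 window 43 and the Dmgdh window 25, against a median of 7 over all windows and 5 in the Slc6a12 window. These matches describe letters in a window and say nothing of binding.

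Between 16449388 and 18566712 reads were assigned to genes in the libraries of the earlier table, and between 16031464 and 18291952 in those of the later one. Values are FPKM, which relate the fragments of a gene to its length and to the depth of the library, and were compared as log2(FPKM + 1). Markers of hippocampal neurons were expressed in every library, with a summed level of 972 to 1150 FPKM over 7 genes in the later table. Single genes moved in opposite directions within that sum. Mean Spink8 was 7.10 FPKM in Bet+HMD against 17.6 in HMD and 22.7 in Con, while Rbfox3 was 39.8 in Bet+HMD against 25.9 in HMD. In the Bet+HMD libraries, long intergenic noncoding genes took 1.40% to 1.45% of the reads, against 0.476% to 0.560% in the Con and HMD libraries, and ribosomal protein genes took 0.409% to 0.479%, against 0.806% to 1.31%. The sum of FPKM was 249135 to 258514 in Bet+HMD and 288439 to 307899 in the other libraries, so a value rescaled to the sum moves up in Bet+HMD. Con replicate 2 stood apart by liver transcripts: the 5 liver markers summed to 81.3 FPKM there and to 0.0710 to 9.12 FPKM in the other 8 libraries of the later table. Markers of the thalamus summed to 26.0 to 74.4 FPKM in HMD, 15.8 to 19.3 in Con and 19.0 to 20.9 in Bet+HMD. Of the 6 tested, 6 were above Con in HMD without overlap, beside 5.09% of all genes with a mean of at least 10 reads. With limma, the linear model used below, 0 of the 6 passed an adjusted p under 0.05.

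The levels of the 10 genes spanned a wide range. In Con mice of the earlier table the mean FPKM, a level per gene length, was 18.1 for Slc44a1 and 13.5 for Aldh7a1, followed by 5.25 for Slc6a20a, 4.17 for Chka and 2.29 for Sardh. Pemt at 1.05, Gnmt at 1.01 and Chdh at 0.979 came next and overlapped in their libraries. Dmgdh at 0.288 and Slc6a12 at 0.278 were lowest and also overlapped, as did Slc6a20a and Chka. In Bet+HMD mice the order began with Slc44a1 at 13.9 FPKM, Aldh7a1 at 13.1, Chka at 9.26 and Slc6a20a at 7.11, so that Chka stood above Slc6a20a without overlap. From Sardh at 1.55 down to Pemt at 0.343 each gene overlapped the next. Of the 10 genes, 7 reached the mean of 1 FPKM that the test required. Slc6a12, Dmgdh and Pemt did not, and they were read from limma voom, a linear model of the reads recovered from FPKM, which were 6 to 49 per library for these 3 genes.

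**Figure D1:**
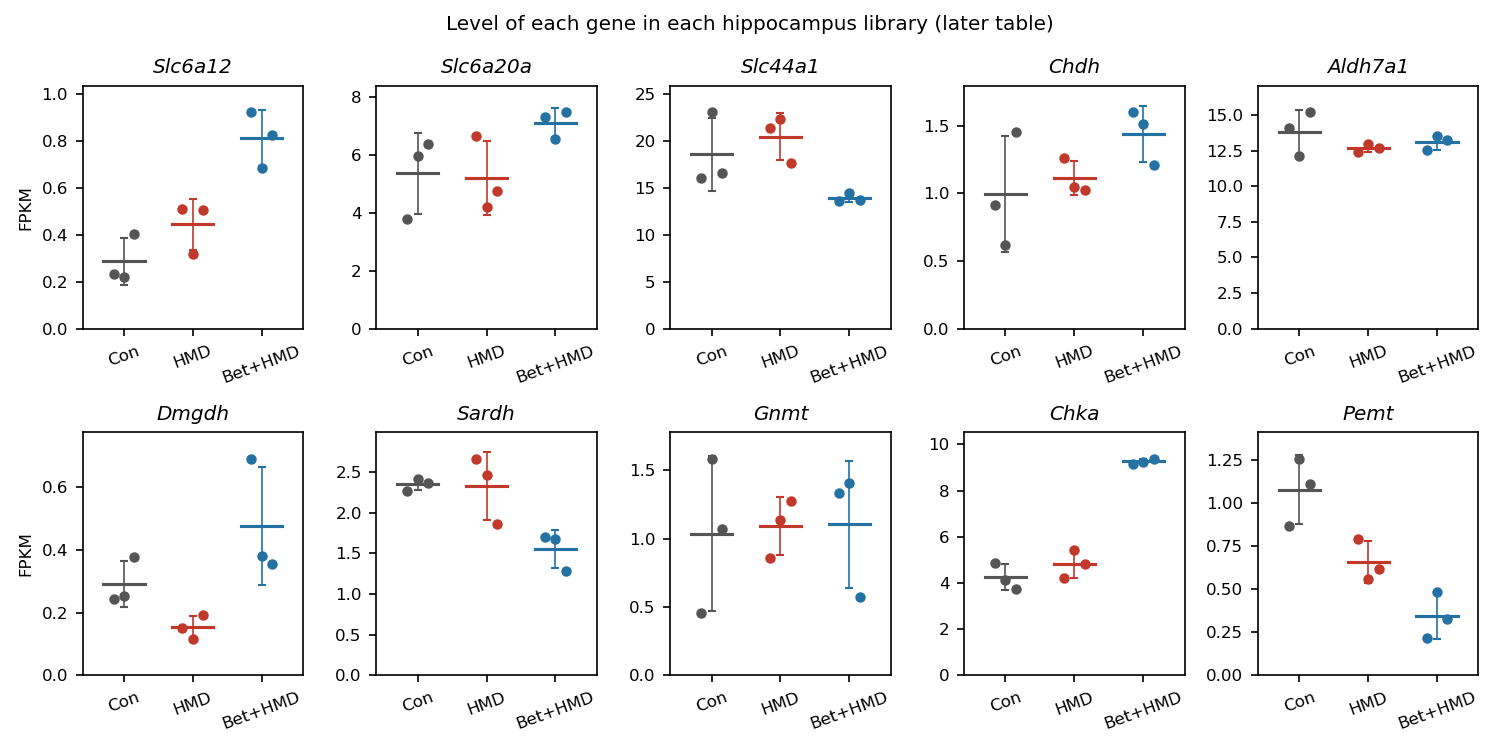
FPKM of each of the 10 genes in the 9 libraries of the later table, with a panel for each gene and a point for each library; lines are group means and error bars are SD (n = 3). Chka lies at 9.15 to 9.39 in Bet+HMD, above every Con and HMD library, and Slc44a1 at 13.6 to 14.4, below every one.

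HMD was compared with Con to see what the diet changed in the hippocampus. Of the 10 genes, 7 were tested and 0 passed an adjusted p under 0.05 with limma, beside 0 of 12989 genes (0%). By voom 0 of 10 passed, also beside 0% of 16116 genes. At an unadjusted p under 0.05 limma gave 0 of the 7 genes and 592 of all genes (4.56%). The median log2 difference was 0.11 over the 7 genes and -0.0038 over all genes. The libraries of the groups did not overlap at 2 of the 10 genes, Dmgdh and Pemt, both lower in HMD. Of all genes with a mean of at least 10 reads, 9.94% did not overlap, with 5.09% higher and 4.85% lower.

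Bet+HMD was compared with HMD to see how mice given betaine after the 8 weeks of feeding differed from mice with the feeding alone. Of the 7 tested genes, Chka rose and Slc44a1 fell, beside 48.3% of 13672 genes called by limma. The share of all genes called higher was 22.8% and the share called lower was 25.5%. By voom, which also tests the 3 genes of low expression, Chka, Slc6a20a and Slc6a12 passed as higher and Slc44a1 and Sardh as lower. Dmgdh also passed as higher, though its HMD libraries alone average under 10 reads, so that it entered the test through its Bet+HMD reads. These were 6 of 10, beside 46.5% of 16846 genes, and 62.1% of all genes called by voom were higher. The libraries did not overlap at 6 of the 10 genes, 3 higher (Chka, Slc6a12 and Dmgdh) and 3 lower (Slc44a1, Sardh and Pemt). Of all genes with a mean of at least 10 reads, 57.2% did not overlap, with 29.8% higher and 27.4% lower. With shares of this size among all genes, the counts are no result about these 10 genes. The median log2 difference was 0.05 over the 7 genes and -0.03 over all genes.

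In Bet+HMD against Con, Chka rose and Sardh fell among the 7 tested genes, beside 39.7% of 13643 genes called by limma, with 19.4% higher and 20.4% lower. By voom Chka and Slc6a12 rose and Sardh and Pemt fell, 4 of 10 beside 38.6% of 16868 genes. The libraries did not overlap at 6 of the 10 genes, with Slc6a12, Slc6a20a and Chka higher and Slc44a1, Sardh and Pemt lower, beside 53% of genes with a mean of at least 10 reads (28% higher and 25% lower). The median log2 difference was 0.06 over the 7 genes and -0.04 over all genes. This comparison shares its Bet+HMD libraries with the comparison against HMD, so the values of both are given side by side and not as separate evidence. Rescaling to TPM moved the median of all genes to 0.16 against HMD and to 0.17 against Con. The share of higher genes among those called then became 69.5% in place of 47.2% against HMD, and 73.5% in place of 48.8% against Con. With voom these shares were 62.1% and 64.4%, and the median of all genes was 0.11 against HMD and 0.09 against Con. The voom differences given for single genes are not adjusted for these medians.

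**Figure D2:**
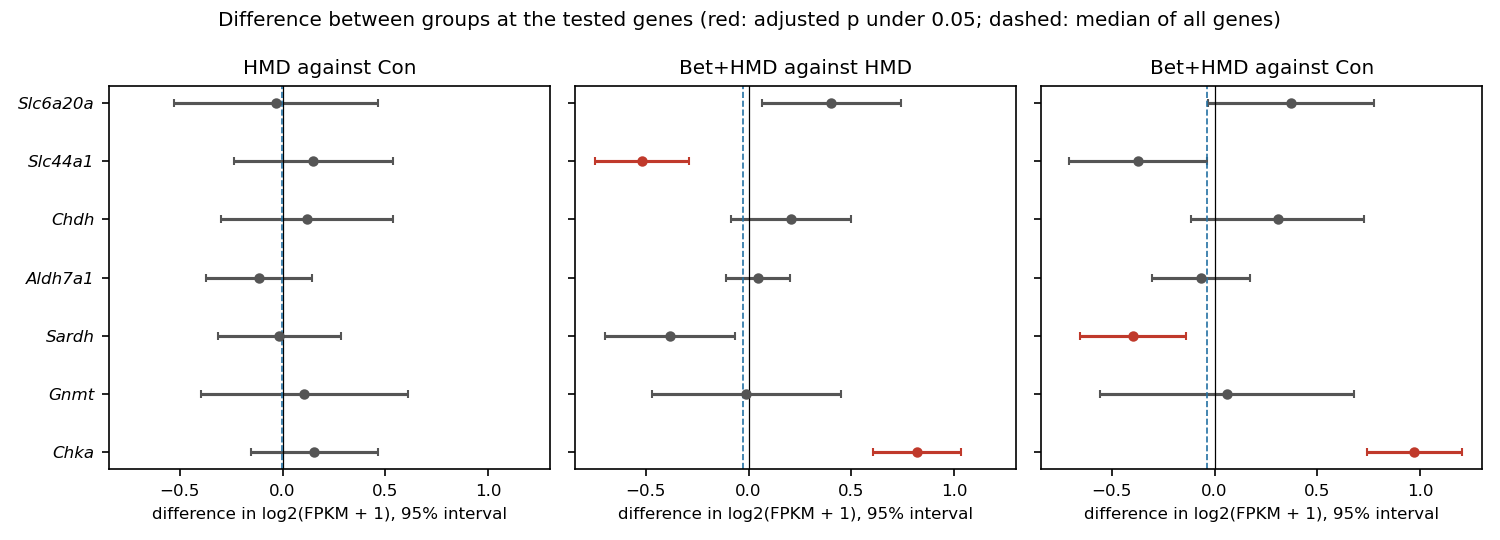
Difference in log2(FPKM + 1) between groups, with its 95% interval from limma, for the 7 genes tested in each of the 3 comparisons; red marks an adjusted p under 0.05 and the dashed line is the median of all genes tested. Chka stands at 0.82 against HMD and 0.97 against Con, and every interval of HMD against Con spans 0.

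Slc6a12 encodes BGT1, a sodium-coupled transporter of betaine and GABA that renal cells use to take up betaine in hypertonic medium. It lies on chromosome 6, 121343076 to 121365775 (+ strand, ENSMUSG00000030109, coordinates of the deposited tables on mm10), 5343 bases from its relative Slc6a13, and overlaps no other listed gene. In the later table the FPKM of replicates 1, 2 and 3 was 0.236, 0.222 and 0.402 in Con, 0.509, 0.321 and 0.504 in HMD, and 0.924, 0.685 and 0.828 in Bet+HMD. Every Bet+HMD library was above every other library, and Con and HMD overlapped. These values rest on 11 to 21 reads per library in Con, 15 to 27 in HMD and 37 to 49 in Bet+HMD. The mean was 2.83 times that of Con, with a voom log2 difference of 1.60 (SE 0.369, adjusted p 0.00827), and it passed with each of the 6 libraries left out. Against HMD the mean was 1.83 times as high, with a voom log2 difference of 0.95 (SE 0.342, adjusted p 0.0396). That call was kept in 1 of 6 fits with a library left out, the fit without HMD replicate 3, and the adjusted p ran to 0.123 without Bet+HMD replicate 1. On the log2(FPKM + 1) scale without a filter the adjusted p was 0.0852 against HMD and 0.0226 against Con. Between HMD and Con the voom log2 difference was 0.65 (SE 0.482, adjusted p 0.977). Fewer cells that express a gene and less of its RNA in each cell cannot be told apart in these samples of whole hippocampus.

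Slc6a20a encodes a sodium-coupled transporter of proline and related imino acids that also carries betaine. It lies on chromosome 9, 123634770 to 123678885 (- strand, ENSMUSG00000036814), 2205 bases from the related gene Slc6a20b, which had at most 12 reads in any library, and how the counting split reads between the pair is not stated. FPKM was 3.78, 5.95 and 6.38 in Con, 6.64, 4.22 and 4.75 in HMD, and 7.30, 6.53 and 7.48 in Bet+HMD. The Bet+HMD libraries lay above all Con libraries, and the lowest of them lay just under HMD replicate 1. The log2 difference missed the threshold of limma by little against HMD (0.40, SE 0.144, adjusted p 0.0528) and missed it against Con (0.37, SE 0.17, adjusted p 0.126). Among 17 alternatives it passed in 7 against HMD, voom among them, and in 1 against Con. By voom it rose against HMD (0.55, SE 0.159, adjusted p 0.0142), though not without Bet+HMD replicate 1 (0.53, adjusted p 0.0509) or replicate 3 (0.52, adjusted p 0.0571). The limma difference from Con was 0.18 (adjusted p 0.204) when Con replicate 1 was left out. By voom it was 0.53 (adjusted p 0.0522), and it passed without Con replicate 2 (0.60, adjusted p 0.0461) or Con replicate 3 (0.70, adjusted p 0.00674). Between HMD and Con the difference was -0.03 (SE 0.213, adjusted p 0.992). Of 5 genes that overlap Slc6a20a, Gm47171 on the same strand had 43 to 75 reads in Bet+HMD and 5 to 27 in the other libraries.

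Among Con and HMD libraries, the lowest levels of Slc6a20a came with the lowest levels of choroid plexus markers. The 9 choroid plexus markers, led by the transthyretin gene Ttr, summed to 776 FPKM in Con replicate 1 and 876 in HMD replicate 2, the libraries with the lowest Slc6a20a. They summed to 1952 to 3225 FPKM in the other 4 libraries of these groups. In Bet+HMD they summed to 949 to 1224 FPKM while Slc6a20a stood at 6.53 to 7.48. Most of each sum was Ttr, at 754 FPKM in Con replicate 1, 842 in HMD replicate 2 and 904 to 1174 in Bet+HMD. Kl, another of the 9 markers, stood at 6.38, 8.93 and 11.8 to 12.5 FPKM there, and at 13.4 to 20.4 in the other 4 libraries. None of the 9 markers passed the test in any comparison, at limma's adjusted p under 0.05, and 0 of 9 had an unadjusted p under 0.05. The 9 meninges markers summed to 23.3 to 26.0 FPKM in Bet+HMD, 24.9 to 37.4 in HMD and 28.7 to 30.4 in Con. The part of either tissue in the level of Slc6a20a was not tested.

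**Figure D3:**
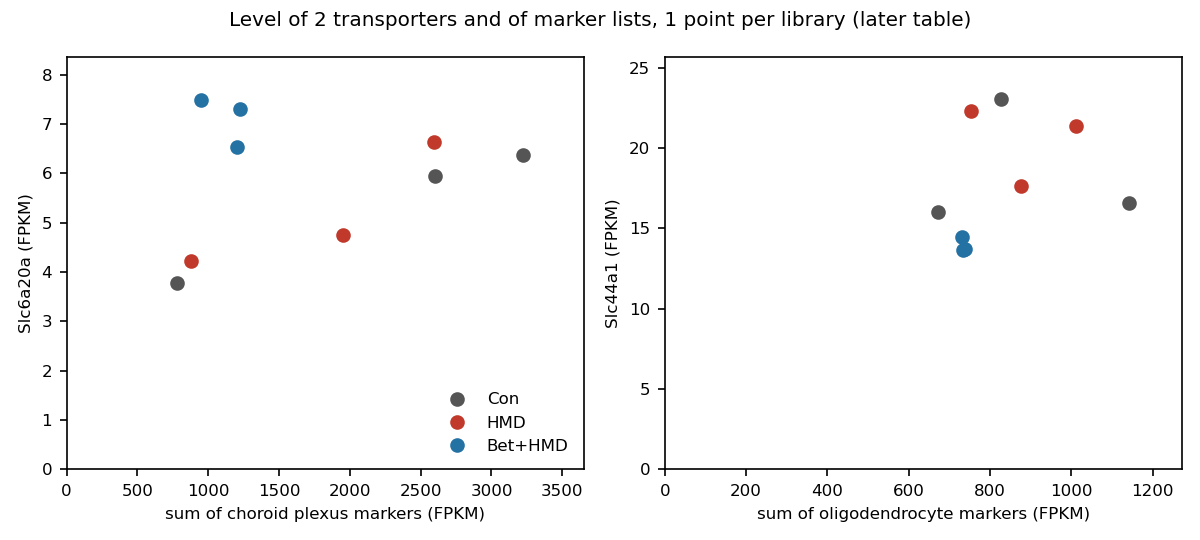
Level of Slc6a20a against the sum of 9 choroid plexus markers (left) and of Slc44a1 against the sum of 6 oligodendrocyte markers (right), all in FPKM, with a point for each of the 9 libraries of the later table. Most of the choroid plexus sum is Ttr. The Con and HMD libraries with the lowest marker sums, 776 and 876, have the lowest Slc6a20a, while the Bet+HMD libraries lie at 949 to 1224 with Slc6a20a at 6.53 to 7.48.

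Slc44a1 encodes CTL1, a choline transporter-like protein of broad expression that carries choline without sodium, and it had the highest level of the 10 genes. It lies on chromosome 4, 53440413 to 53622478 (+ strand, ENSMUSG00000028412). FPKM was 16.0, 23.1 and 16.6 in Con, 21.4, 22.3 and 17.7 in HMD, and 13.6, 14.4 and 13.7 in Bet+HMD. The Bet+HMD libraries were below every Con and HMD library and close to each other. Against HMD the mean fell to 0.681 times its level, with a log2 difference of -0.52 (SE 0.097, limma adjusted p 0.00435), and this held in 17 of 17 alternatives at -0.61 to -0.34. Against Con the difference was -0.37 (SE 0.141, adjusted p 0.0751), and it passed in 0 of 17 alternatives, with -0.21 (adjusted p 0.0578) when Con replicate 2 was left out. Of 6 further voom fits with a library left out it passed in 2, without Con replicate 1 (-0.41, adjusted p 0.0419) and without Con replicate 3 (-0.35, adjusted p 0.0401), and it stood at -0.17 (adjusted p 0.122) without Con replicate 2. Between HMD and Con it was 0.15 (SE 0.165, adjusted p 0.98). The antisense gene 1700060J05Rik had 24 to 39 reads in Bet+HMD and 3 to 12 in the others, against 1644 reads or more of Slc44a1. Markers of oligodendrocytes, cells that make much membrane lipid, were lower at 3 of 6 genes against HMD, among them Mog, a myelin protein (39.3 ± 4.02 to 19.9 ± 2.11 FPKM, SD, n = 3, log2 difference -0.95) and Cnp, a myelin enzyme (79.5 ± 7.67 to 50.3 ± 0.341, log2 difference -0.65). Their sum over 6 genes was 732 to 739 FPKM in Bet+HMD, 752 to 1012 in HMD and 671 to 1143 in Con, and their part in the level of Slc44a1 was not tested.

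Chdh, choline dehydrogenase, carries out the first oxidation of choline in mitochondria, and Aldh7a1, an aldehyde dehydrogenase that also serves lysine breakdown, can oxidise betaine aldehyde to betaine. Chdh lies on chromosome 14, 30009023 to 30040527 (+ strand, ENSMUSG00000015970), and Aldh7a1 (ENSMUSG00000053644) lies on chromosome 18. The FPKM of Chdh was 0.916, 0.615 and 1.46 in Con, 1.26, 1.05 and 1.03 in HMD, and 1.60, 1.51 and 1.21 in Bet+HMD. All 3 groups overlapped. Its log2 difference was 0.12 for HMD against Con (SE 0.18, adjusted p 0.98), 0.21 for Bet+HMD against HMD (SE 0.124, adjusted p 0.205) and 0.31 for Bet+HMD against Con (SE 0.177, adjusted p 0.208). The last passed only without Con replicate 3 (0.47, adjusted p 0.0492), among fits on FPKM with a library left out. By voom with a library left out it passed against Con without Con replicate 3 (1.02, adjusted p 0.00692) and against HMD without Bet+HMD replicate 3 (0.57, adjusted p 0.0460). Con libraries average under 1 FPKM, so Chdh entered both comparisons with Con through the other group. Cacna1d overlaps Chdh on the opposite strand and had 1479 to 1550 reads in Bet+HMD against 591 to 959 in the other libraries, and the use of strand in counting is not given in the sources. The FPKM of Aldh7a1 was 14.1, 12.1 and 15.2 in Con, 12.4, 12.9 and 12.7 in HMD, and 12.5, 13.5 and 13.2 in Bet+HMD. It was the steadiest of the abundant genes, with overlapping groups and log2 differences of -0.11, 0.05 and -0.07 in the 3 comparisons in the same order. The interval of its difference between Bet+HMD and HMD ran from -0.11 to 0.20. TPM alone among the alternatives took it past the threshold against HMD (0.24, adjusted p 0.0329), which is 0.08 above the median of all genes on that scale.

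Dmgdh and Sardh are mitochondrial flavoproteins that remove methyl groups from dimethylglycine and sarcosine in turn. Dmgdh lies on chromosome 13, 93674433 to 93752833 (+ strand, ENSMUSG00000042102), 131 bases from Bhmt2 and 36472 bases from Bhmt. Its FPKM was 0.243, 0.253 and 0.377 in Con, 0.152, 0.115 and 0.191 in HMD, and 0.691, 0.381 and 0.353 in Bet+HMD. HMD was below both other groups without overlap, and Bet+HMD replicate 1 stood well above the rest. The reads behind these values were 14 to 22 in Con, 6 to 11 in HMD and 21 to 41 in Bet+HMD. The mean was 3.12 times that of HMD in Bet+HMD, with a voom log2 difference of 1.63 (SE 0.497, adjusted p 0.0195). Voom kept genes with a mean of at least 10 reads over the libraries compared, a mean that Dmgdh reached through Bet+HMD alone, so that a difference in this direction was favoured by the filter. Without Bet+HMD replicate 1 the difference was 1.33 and the adjusted p 0.0740, and on the log2(FPKM + 1) scale without a filter the adjusted p was 0.0592. Against Con the voom difference was 0.74 (SE 0.415, adjusted p 0.188). In the earlier table the mean of HMD was 0.501 times that of Con (0.142, 0.109 and 0.181 against 0.235, 0.245 and 0.383 FPKM), a voom log2 difference of -0.95 (SE 0.531, adjusted p 0.977), where the gene reached 10 reads through Con alone. The antisense gene AW495222 had 36 to 51 reads in Bet+HMD and 8 to 24 in the others, on the opposite strand.

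Sardh lies on chromosome 2, 27188393 to 27248337 (- strand, ENSMUSG00000009614). Its FPKM was 2.27, 2.42 and 2.37 in Con, 2.67, 2.46 and 1.86 in HMD, and 1.71, 1.68 and 1.28 in Bet+HMD. The Bet+HMD libraries were below all others, with HMD replicate 3 nearest to them. Against Con the mean fell to 0.661 times its level, with a log2 difference of -0.40 (SE 0.108, limma adjusted p 0.0259). Against HMD the difference was -0.38 (SE 0.135, adjusted p 0.0508) with limma and -0.49 (SE 0.186, adjusted p 0.0484) with voom. Of 16 alternatives against HMD, 7 called Sardh, voom among them. The voom call stood in 1 of 6 fits with a library left out, the one without HMD replicate 3 (-0.63, adjusted p 0.0133). The call against Con was lost without Con replicate 1 or without any 1 of the 3 Bet+HMD replicates, at -0.44 to -0.32 and adjusted p of 0.0522 to 0.0932. It was also lost without a filter (adjusted p 0.0613), with TPM (-0.34, adjusted p 0.106) and under the replicate block (adjusted p 0.0734), and it stood in 9 of 16 alternatives. By voom it was -0.52 (adjusted p 0.0309) and stood in 2 of 6 fits with a library left out, those without Con replicate 2 or 3. Between HMD and Con the difference was -0.02 (SE 0.128, adjusted p 0.993).

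Gnmt, glycine N-methyltransferase, adds a methyl group from S-adenosylmethionine to glycine and is abundant in liver. It lies on chromosome 17, 46725664 to 46729168 (- strand, ENSMUSG00000002769), and with 1206 bases was the shortest of the 10 genes. Its FPKM was 0.458, 1.59 and 1.07 in Con, 0.859, 1.14 and 1.28 in HMD, and 1.34, 1.41 and 0.572 in Bet+HMD, on 10 to 31 reads. The groups overlapped fully, and the highest library was Con replicate 2, the library with liver transcripts. Log2 differences were 0.11 for HMD against Con (SE 0.216), -0.01 for Bet+HMD against HMD (SE 0.196) and 0.06 for Bet+HMD against Con (SE 0.261), with limma adjusted p of 0.98, 0.969 and 0.871, and the sign of each turned in at least 1 alternative. Without Con replicate 2 the gene was under the filter in both comparisons with Con. The 95% interval of the voom difference from HMD ran from -0.94 to 0.99, so a difference of either sign within it was not excluded.

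Chka, choline kinase alpha, phosphorylates choline in the first step of the CDP-choline route to phosphatidylcholine. It showed the largest difference of the 7 tested genes in both comparisons of Bet+HMD. It lies on chromosome 19, 3851773 to 3894369 (+ strand, ENSMUSG00000024843), and with 12024 bases was the longest of the 10. FPKM was 4.87, 4.13 and 3.74 in Con, 4.23, 5.44 and 4.82 in HMD, and 9.15, 9.23 and 9.39 in Bet+HMD. The 3 Bet+HMD libraries lay within a narrow band far above all 6 others, on 1912 to 1965 reads against 770 to 1060. Against HMD the mean rose 1.92-fold, with a log2 difference of 0.82 (SE 0.0917, 95% interval 0.61 to 1.04, limma adjusted p 0.000502). Against Con it rose 2.18-fold, with a log2 difference of 0.97 (SE 0.0977, adjusted p 0.000695). Both calls held in 17 of 17 alternatives, at 0.74 to 1.10 and 0.90 to 1.29. On the TPM scale the differences were 0.94 and 1.13 above the median of all genes. Between HMD and Con the difference was 0.16 (SE 0.133, adjusted p 0.98). Gm16066, the gene on the opposite strand, had 0 to 8 reads.

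Pemt, phosphatidylethanolamine N-methyltransferase, makes phosphatidylcholine by the other route and is best known from liver. It lies on chromosome 11, 59970614 to 60046489 (- strand, ENSMUSG00000000301), and overlaps no other listed gene. FPKM was 0.867, 1.26 and 1.11 in Con, 0.793, 0.558 and 0.619 in HMD, and 0.219, 0.484 and 0.328 in Bet+HMD. The 3 groups did not overlap and followed the order Con, HMD, Bet+HMD. The reads were 33 to 43, 18 to 29 and 8 to 18 per library. Against Con the mean of Bet+HMD fell to 0.318 times its level, with a voom log2 difference of -1.58 (SE 0.401, adjusted p 0.013), and the unfiltered log2(FPKM + 1) test also called it (adjusted p 0.0204). The voom call was lost without Bet+HMD replicate 1 (-1.30, adjusted p 0.0661) or replicate 3 (-1.57, adjusted p 0.0553), and it was kept without Con replicate 2, the library with liver transcripts (-1.48, adjusted p 0.0203). Against HMD the voom difference was -0.88 (SE 0.446, adjusted p 0.127). In the earlier table HMD stood at 0.592 times Con (0.742, 0.530 and 0.588 against 0.840, 1.22 and 1.08 FPKM), a voom log2 difference of -0.73 (SE 0.375) with an adjusted p of 0.977 among the 16116 genes tested and an unadjusted p of 0.0778.

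**Figure D4:**
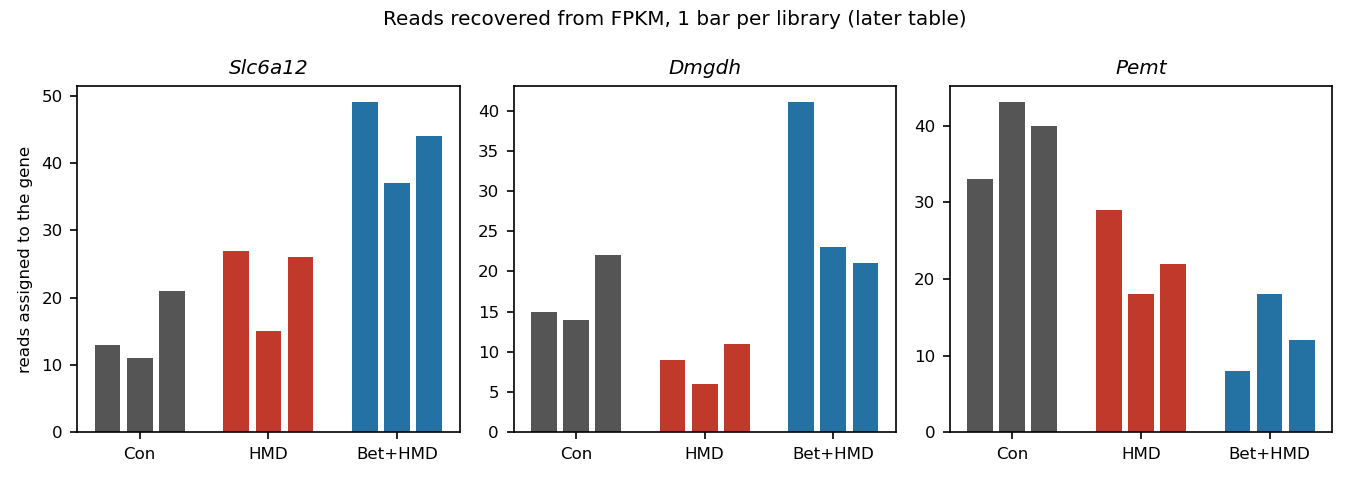
Reads assigned to Slc6a12, Dmgdh and Pemt, the 3 genes under the FPKM filter, with a bar for each of the 9 libraries of the later table. Slc6a12 has 37 to 49 reads in Bet+HMD and 11 to 27 elsewhere, Dmgdh has 6 to 11 in HMD, and Pemt steps down from 33 to 43 in Con to 8 to 18 in Bet+HMD.

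Lists of 67 further genes were read beside the 10, in 8 groups by role, of which 48 genes were tested in each comparison. For HMD against Con 0 of 48 passed with limma, and by voom 0 of all genes passed. At an unadjusted p under 0.05 limma gave 4 of 48, beside 4.56% of all genes. These were Ache, the acetylcholine esterase (log2 difference 0.40), Gldc of the glycine cleavage system (-0.48), Etfb, a subunit of the electron carrier that serves Dmgdh and Sardh (-0.70), and Slc38a2, a neutral amino acid transporter (0.65), with adjusted p of 0.859 to 0.98. Against HMD, 11 of 48 rose and 15 fell in Bet+HMD, beside 22.8% and 25.5% of all genes, with a median log2 difference of -0.14 against -0.03 over all genes. Against Con, 9 rose and 14 fell, beside 19.4% and 20.4% of all genes, with a median of -0.07 against -0.04. The counts of the single lists are to be read against these shares.

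Of 8 tested genes of betaine use and glycine cleavage, 4 fell and 1 rose in Bet+HMD against HMD, and 5 fell and 1 rose against Con, where 25.5% and 20.4% of all genes fell. Of the 6 calls against Con, 3 were left without Bet+HMD replicate 1 or 3. Gcsh, the lipoyl carrier of the cleavage system, fell from 29.4 to 14.7 FPKM against HMD (log2 difference -0.95, SE 0.0907, limma adjusted p 0.00028) and by 0.95 against Con. Dld, the dihydrolipoamide dehydrogenase of that system, fell by 0.61 against each on the log2 scale, and Amt, its aminomethyltransferase, rose by 0.62 against HMD. Etfa, the partner of Etfb, fell by 0.88 against Con. Bhmt was near the floor: it had 13 to 156 reads in Con, with the 156 in Con replicate 2, the library with liver transcripts, 0 to 20 in HMD and 2 to 8 in Bet+HMD. Bhmt2 had 1 to 17 reads in any library.

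Among all genes 48.3% were called against HMD and 39.7% against Con. Of the choline transport genes 1 of 4 rose in each comparison and 0 fell. This was Flvcr1, a carrier of choline and heme, at 4.74 FPKM in Bet+HMD against 2.89 in HMD (log2 difference 0.56, SE 0.081, limma adjusted p 0.00141) and 2.71 in Con (0.63). Of 7 genes of phospholipid synthesis 1 rose and 1 fell against HMD, and 0 rose and 1 fell against Con. The 2 calls against HMD became 1 in 5 of 6 fits with a library left out, and the call against Con was lost without Con replicate 1 or any Bet+HMD replicate. The one that rose was Pcyt2, which makes CDP-ethanolamine, from 6.40 to 10.7 FPKM (0.66, SE 0.0702, adjusted p 0.000413). Chkb, the second choline kinase gene, was under the filter, with 4 to 7 reads in Con, 0 to 2 in HMD and 20 to 29 in Bet+HMD. Of 8 tested lipid-cleaving genes listed under choline release, 3 rose and 2 fell against HMD, and 2 rose and 2 fell against Con. Release of choline by these enzymes was not measured. The 5 calls against HMD became 3 without Bet+HMD replicate 1 or 2, and the 4 against Con became 2 without replicate 1 or 3. Gde1, a glycerophosphodiesterase, fell from 109.7 to 55.6 FPKM against HMD (-0.97) and by 0.90 against Con on the log2 scale. Pnpla6, a phospholipase that yields glycerophosphocholine, rose by 0.68 and 0.66, and Pld2, a phospholipase D, rose by 0.48 against HMD.

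Of 9 relatives of the betaine transporter 4 rose and 2 fell against HMD, and 4 rose and 1 fell against Con, again beside 48.3% and 39.7% of all genes called. The 6 calls against HMD became 3 without Bet+HMD replicate 1, and the 5 against Con became 2 without Con replicate 1, Con replicate 2 or any Bet+HMD replicate. Slc6a6, the taurine transporter, rose by 0.42 and 0.44, Slc6a9, a glycine transporter, rose by 0.64 against HMD, and Slc6a15, a transporter of branched-chain amino acids and proline, fell by 0.72 and 0.75, all on the log2 scale. Of 6 genes of the response to tonicity 1 rose and 3 fell in each comparison. Nfat5, the factor that drives Slc6a12 in hypertonic kidney cells, stood at 13.0 ± 0.291 FPKM (SD, n = 3) in Bet+HMD, against 8.49 ± 1.70 in HMD and 7.39 ± 1.52 in Con, and it rose by 0.75 against Con (SE 0.136, limma adjusted p 0.00576). Hspa1b, a heat shock protein with the near-identical copy Hspa1a, fell by 0.93 against HMD and by 1.00 against Con, and reads may be split between the pair. Akr1b3, an aldose reductase that makes the osmolyte sorbitol, fell by 0.62 against HMD, and Slc38a2 fell by 0.52. Of 4 small-molecule methyltransferases 2 fell in each comparison (1 against Con without Con replicate 1 or any Bet+HMD replicate), among them Hnmt of histamine breakdown (-0.56 and -0.60). Of 2 acetylcholine genes tested Ache fell against HMD (-0.33) and 0 passed against Con, and Chat, the gene of acetylcholine synthesis, had 21 reads or fewer in every library.

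**Figure D5:**
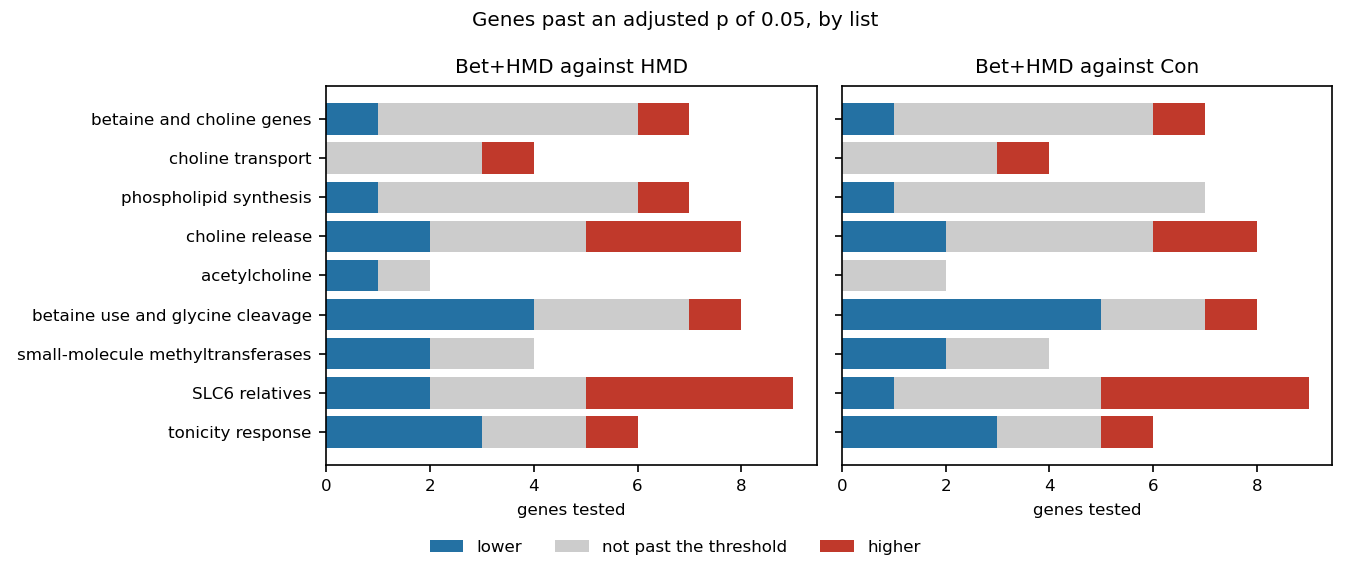
Number of genes that passed an adjusted p of 0.05 with limma among those tested, for the 10 betaine and choline genes (7 tested) and 8 lists of related genes, in Bet+HMD against HMD and against Con; blue is lower, red is higher and grey is not past the threshold. Betaine use and glycine cleavage has 4 of 8 lower against HMD and 5 of 8 against Con.

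Profiles over the 9 libraries of the later table were compared for the 2 tested genes whose log2 level varied most, Chka (SD 0.466) and Slc6a20a (SD 0.298). Among 13464 genes the profile of Chka, centred on its mean, was nearest to that of Shisa7, a protein of GABA and AMPA receptor complexes, with a root mean square difference of 0.0487 on the log2 scale. Gm42732 (0.0574) and Hook1 (0.0597) came next. The nearest to Slc6a20a were Asah2 (0.0894), a ceramidase, Cyp27a1 (0.104), a sterol hydroxylase, and Arhgef10 (0.112). Likeness of this kind includes the difference of the Bet+HMD libraries from all others.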

How the data were processed

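The RNA was of whole hippocampus. The study's methods describe depletion of ribosomal RNA and stranded libraries, and they do not mention mice given betaine. The submitters' processing notes name HISAT2 2.1.0, featureCounts 1.5.0-p3 and mm10, while the study's methods name other versions and female mice. On sex the libraries match the labels, which say male. Xist, a transcript of female cells, stayed under 1 FPKM in every library. The Y-linked gene Ddx3y averaged 18.6 FPKM in HMD and 16.4 in Con of the earlier table, and 13.4 in Bet+HMD. Whether counting used the strand is not given in the sources used here. The authors deposited FPKM per gene with gene lengths in 2 tables. Columns named COL were read as Con. Other columns hold annotation and were used for positions and gene types.

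Reads were recovered from FPKM and gene length: 100% of values came out whole within 0.05. Libraries held 16031464 to 18566712 reads, so that 3 reads were at most 1.87e-05 percent of a library. The 6 shared libraries had 0.312% to 5.49% fewer reads in the later table.

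Differences in log2(FPKM + 1) were tested with limma 3.58.1 (R 4.3.3), with a trend in the variance, keeping genes whose FPKM averaged 1 or more in the libraries compared, and p-values were adjusted over all of them by Benjamini-Hochberg, with a threshold of 0.05. Limma voom on recovered reads (mean of at least 10) served the genes below that filter, with the sum of recovered reads as library size where the authors' FPKM used a scaled one. Each sample is labelled as a separate mouse preparation only by its number, so p-values measure the spread between these samples. An exact permutation test of 3 against 3 cannot go below 0.10, so none was used. The fits were tested on simulated data. Python 3.11.15 with pandas 2.3.3, numpy 2.4.6 and matplotlib 3.10.9 made tables and figures.

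Alternatives were a pseudocount of 0.1, a filter of 5 or none, TPM, quantile and median-ratio scaling, protein-coding genes alone, no trend, all 3 groups in a single fit, the later table for HMD against Con, voom, a replicate block and each library left out. Voom with each library left out was chosen after seeing the data. The 10 genes and all lists were chosen with earlier results of these data known. Text values cover the 10 genes, up to 3 genes per list with the smallest p among those past the threshold (up to 2 where none passed), and the 3 most alike profiles for 2 genes. Chkb, Bhmt, Bhmt2 and Chat are named outside that rule, after their values were seen.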

Additional observations from a re-analysis of the deposited data

How the results depend on the processing

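The 10 genes gave no call for HMD against Con under any alternative run. For Bet+HMD against HMD the 2 calls became 4 with TPM, 4 with protein-coding genes alone, 6 with voom and 4 with the replicate block. Sardh also joined them with quantile scaling (limma adjusted p 0.00929), no trend (0.0402) and all 3 groups in a fit (0.0333). Slc6a20a joined them with median-ratio scaling (limma adjusted p 0.0399) and a filter of 5 FPKM (0.0476). For Bet+HMD against Con the 2 calls became 1 with a filter of 5 FPKM, 4 with voom and 1 with the replicate block, where Sardh was lost. They became 1 to 3 with a library left out (1 without Con replicate 1 or any Bet+HMD replicate). Without a filter Sardh was lost while Slc6a12 and Pemt passed, and with TPM Slc6a20a passed in place of Sardh. The filter of 5 FPKM, which tests fewer genes, took all genes called from 6607 to 4166 and from 5422 to 3260, and the listed pathway genes from 26 to 17 and from 23 to 15. With a library left out, all genes against Con ran from 3302 to 6269 (3424, 3347 and 3302 without Bet+HMD replicates 1, 2 and 3) and pathway genes from 13 to 23 (13, 15 and 13 without these). All genes for HMD against Con were 0 to 2 with a library left out (2 without Con replicate 2) and 9 when all 3 groups shared a fit. The cause of each shift other than fewer genes or libraries was not tested.

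Signs turned only where no call stood. Against HMD these were Chdh with quantile scaling (-0.0721) and Gnmt with TPM (0.12), median ratio (0.0106) and voom (0.0247). Against Con they were Aldh7a1 with TPM (0.15), quantile scaling (0.0635) and voom (0.0131), and Gnmt with quantile scaling (-0.29). With a library left out, HMD against Con ran from -0.22 to 0.10 for Slc6a20a, -0.0118 to 0.15 for Chdh, -0.0893 to 0.0770 for Sardh and -0.11 to 0.15 for Gnmt. Gnmt ran from -0.12 to 0.19 against HMD and from -0.16 to 0.26 against Con, and Aldh7a1 from -0.15 to 0.0032 against Con.

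The main fits did not treat replicate numbers as pairs. Deviations of same-numbered libraries correlated at -0.06, 0.35 and 0.32 for HMD and Con. They correlated at 0.02, -0.10 and -0.15 for Bet+HMD and HMD, and at -0.05, -0.09 and -0.18 for Bet+HMD and Con. Libraries of different numbers were not correlated for comparison, so whether the numbers pair the samples was not tested. Depth limits the genes with at most 49 reads per library (Slc6a12, Dmgdh, Pemt and Gnmt).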
